A study of Mus musculus with 22 samples.

Results

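On chromosome 14, thymic lymphomas of Atm-deficient mice carried a gain of DNA that ran towards the T-cell receptor alpha/delta locus. In most of them, but not all, it covered the neuregulin gene Nrg3. The stretch described here lies at 22 to 40 Mb of that chromosome and was defined by the midpoint of each probe, which placed 1763 of the 235402 probes of the array in it (1763 of 10526 on chromosome 14). The bounds were drawn around a difference already seen between lymphoma and no-lymphoma mice. The levels in the 2 groups are therefore given as descriptions, with no test. The probes lay 7111 bp apart (median), from 22005982 to 39916021, and 1760 of them were measured in all 22 arrays. Positions are those of the array files, and their genome build is not stated in the labels or headers used here.

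Each array compared thymocyte DNA of 1 mouse, labelled with Cy5, with thymocyte DNA of wildtype mice, labelled with Cy3. The 8 lymphoma mice were Atm-deficient and had a thymic lymphoma, and the 14 no-lymphoma mice were Atm-deficient with a thymus in which no change was visible on dissection. Per the labels, no mouse was treated, and strain, age, sex and the altered piece of Atm are not given in the labels used here. Dye and genotype cannot be told apart, because Cy5 always marked the Atm-deficient DNA.

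Atm is a kinase that responds to broken DNA and holds broken ends together during V(D)J recombination, the cutting and joining that builds T-cell receptor genes in thymocytes. The alpha/delta locus is cut at short recombination signals, each with a conserved heptamer. In Atm-deficient mice, thymic lymphomas are known for chromosome 14 rearrangements that begin from breaks in this locus. Nrg3 encodes a ligand of the ErbB4 receptor and is known mainly from the nervous system.

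Each value is a log2 ratio, with Atm-deficient DNA over wildtype DNA, so 0 is an equal amount of DNA and 1 is a doubling. A level is a mean over all cells of a thymus, so many copies in few cells and few copies in many cells cannot be told apart. Noise per probe was 0.15 to 0.37 in lymphoma mice, against 0.13 to 0.55 in no-lymphoma mice. The arrays labelled no-lymphoma mouse 3, 4 and 9 were the noisiest and correlated at 0.82 to 0.87 with each other over autosomal probes. Of 231 pairs of arrays, 8 correlated below -0.3, the lowest at -0.48, and each of these included 1 of those 3 arrays. Since each label names its dyes, directions were kept as labelled, and the main difference is also given with these 3 arrays turned. A further 2 arrays stood apart on this chromosome. The array labelled no-lymphoma mouse 1 read below 0 from 38.79 Mb on, where lymphoma mice read above it. The array labelled no-lymphoma mouse 11 read above 0 along the whole stretch and over chromosome 15, whose median was 0.47 there, against 0.15 to 0.57 in lymphoma mice.

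The probes that bracket the level changes are shown because the DNA between each pair holds the place where the level changed. Each is written 5′ to 3′ as in the array files, with the position on chromosome 14 in those files.
lymphoma mouse 4, last probe before the start (14:32919228-32919287, in Grid1): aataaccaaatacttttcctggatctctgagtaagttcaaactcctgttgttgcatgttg
lymphoma mouse 4, first probe of the gain (14:32930051-32930110, in Grid1): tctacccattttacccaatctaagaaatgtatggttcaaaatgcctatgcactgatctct
lymphoma mouse 6, last probe before the rise (14:33922861-33922920, between genes): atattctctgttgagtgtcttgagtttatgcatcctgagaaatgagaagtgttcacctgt
lymphoma mouse 6, first probe after the rise (14:33941531-33941590, between genes): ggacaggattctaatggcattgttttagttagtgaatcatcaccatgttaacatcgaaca
lymphoma mouse 1, last probe before the start (14:34227019-34227078, between genes): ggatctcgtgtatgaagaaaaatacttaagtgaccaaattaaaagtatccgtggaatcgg
lymphoma mouse 1, first probe of the gain (14:34248449-34248508, between genes): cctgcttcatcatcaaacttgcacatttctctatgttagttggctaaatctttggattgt
lymphoma mouse 6, last probe before the fall in Nrg3 (14:36526448-36526507): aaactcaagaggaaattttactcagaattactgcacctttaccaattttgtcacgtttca
lymphoma mouse 6, first probe after the fall in Nrg3 (14:36532776-36532835): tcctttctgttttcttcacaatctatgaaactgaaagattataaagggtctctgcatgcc
7 arrays, last probe before the shared edge (14:38702173-38702232, in AK007033): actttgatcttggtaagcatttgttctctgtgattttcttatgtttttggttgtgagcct
7 arrays, first probe after the shared edge (14:38791444-38791490, in AK007033): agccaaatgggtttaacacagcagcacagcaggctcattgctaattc
The recombination heptamer CACAGTG, or its reverse complement CACTGTG, is on 0.887% of autosomal probes. It is on 18 of the 1763 probes of the stretch (1.02%) and on 0 of the 45 probes that bracket a level change in it, so no letters are in capitals above. The windows between the bracketing probes were not searched, since the array holds no sequence for them.

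The gain that ran into the receptor locus began at a different place in nearly every lymphoma. It was followed from the 2 Mb before the locus towards the centromere through adjoining segments whose mean was at least 0.25, up to the first segment below that value. The locus is taken to start at 47658041, after Sall2. All 8 lymphoma mice and 2 of the 14 no-lymphoma mice (9 and 11) had such a gain beginning before 40 Mb, and 3 more no-lymphoma mice (12, 13 and 14) had one beginning at 47.1 to 47.2 Mb. With normexp background correction, a background step applied to the unprocessed signals, 6 lymphoma mice and 0 no-lymphoma mice had a gain beginning before 40 Mb.

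The longest gains began before 22 Mb. In lymphoma mouse 8 the first gained probe was at 17273588, 30.4 Mb before the locus, and the region just before it is a gap of 271310 bp without probes. In lymphoma mouse 2 it was at 17454413, inside Nid2, which encodes the basement membrane protein nidogen-2, but it was at 31.38 Mb with normexp background correction and at 47.10 Mb when outlying probes were not clipped before segmentation. In lymphoma mouse 5 it was at 24648916, 23.0 Mb before the locus, and at 35.92 Mb with normexp background correction.

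In lymphoma mouse 4 the gain began at 32930051, inside Grid1, which encodes a delta-type glutamate receptor subunit. Lymphoma mice 1 and 3 had starts at 34248449 and 34677537. The start in mouse 1 lies 57.7 kb before Ccser2. In mouse 3 the last probe before the start, which ends at 34646899, lies 85.6 kb after Ghitm, a mitochondrial inner membrane gene. Lymphoma mouse 7 had the latest start, at 38791444. The 8 starts thus spread over 21.5 Mb, and their median was 30508982.

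The threshold of 0.25 mattered for 4 of the 8 starts in lymphoma mice and for those of no-lymphoma mice 11, 12, 13 and 14. In lymphoma mouse 7 the segment before the start, at 32.50 to 38.70 Mb, had a mean of 0.22, and the 2 segments before that had means of 0.33 and 0.44. With a threshold of 0.15 its gain began at 28.24 Mb. In no-lymphoma mouse 11 the gain began at 36799662, inside Nrg3, after segments of 0.19 and 0.23, and at 0.15 it began at 17.28 Mb. At 0.15 lymphoma mouse 6 also had another start, at 26.67 Mb. The gains of no-lymphoma mice 12, 13 and 14 then began at 39.81, 46.11 and 39.80 Mb. With that threshold 4 no-lymphoma mice had a gain beginning before 40 Mb. With a threshold of 0.40 the gain began at 39.21 Mb in lymphoma mouse 2 and at 38.79 Mb in lymphoma mouse 3.

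**Figure D1:**
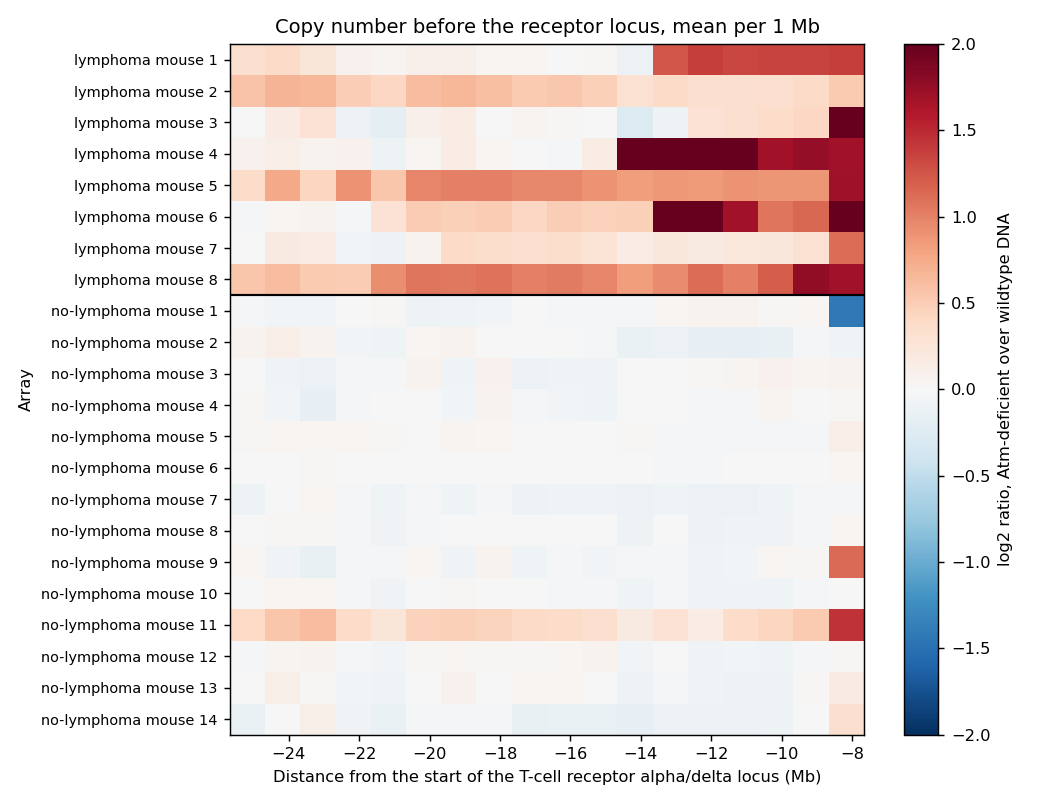
Mean log2 ratio of Atm-deficient over wildtype DNA per 1 Mb (colour), for 8 lymphoma arrays above the black line and 14 no-lymphoma arrays below it, against distance from the start of the receptor locus in Mb. In the first Mb lymphoma mice 1, 2, 5 and 8 are at 0.32 to 0.57 and the other 4 are lower, no-lymphoma mouse 11 is red throughout, and no-lymphoma mouse 1 is blue only in the last Mb (-1.43).

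Within the stretch the level changed in steps. A step of at least 0.5 between adjoining segments was found 17 times in 7 lymphoma mice and 10 times in 4 no-lymphoma mice. Of the 17 steps in lymphoma mice, 14 went up towards the locus and 3 went down. Between probes of a single gene lay 10 of the 17, while 1293 of the 1763 probes of the stretch carried a gene name. The 10 include the same edge, in AK007033, counted in each of lymphoma mice 3, 5, 6 and 7.

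Lymphoma mouse 4 had the highest step at its start, 2.05. It read 2.04 beyond the step in Grid1, against -0.01 before it, over 139 and 440 probes, and the change lay within 10763 bp. Its level was then 2.23 at 35.28 to 36.92 Mb and 1.73 from 36.95 Mb on. In lymphoma mouse 1 the level was 1.37 beyond the start and -0.09 before it, and 381 probes in a row kept that level up to 39.92 Mb. Both mice therefore had a single large step with no low plateau before it.

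Lymphoma mouse 6 showed a staircase. A plateau of 0.58 and 0.47 ran up to 33.92 Mb. The level was 2.20 beyond the step at 33.94 Mb, against 0.47 before it, and the change lay within 18610 bp, between 4930474N05Rik and Ccser2. Inside Nrg3 the level went through 2.40, 1.81 and 1.10, with steps down at 36.39 and 36.53 Mb, and it was 2.001 from 38.79 Mb on. The high block at 33.94 to 36.53 Mb was thus set apart on both sides from lower levels that were still gained.

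Lymphoma mice 8, 2 and 5 showed long plateaus. Lymphoma mouse 8 had 0.53 at 17.27 to 25.95 Mb, 1.01 at 25.96 to 37.63 Mb and 1.75 from 37.67 Mb, and the first change lay next to Wnt5a, which encodes a secreted Wnt ligand. Lymphoma mouse 2 stayed between 0.35 and 0.68 through the whole stretch, with no step of 0.5, and was at 2.95 from 40.07 Mb. Lymphoma mouse 5 had an island of 1.07 at 22.58 to 23.65 Mb, a gap of 0.03 at 23.65 to 24.64 Mb, and then levels of 0.48 to 1.12 up to 38.70 Mb. The low level of 0.48 in that mouse was at 26.38 to 27.06 Mb and ended inside Cacna2d3, which encodes an accessory subunit of calcium channels.

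Lymphoma mice 3 and 7 had low plateaus and rose late. Lymphoma mouse 3 was at 0.34 from its start to 38.70 Mb, at 2.05 from 38.79 Mb and at 3.25 from 40.07 Mb. Relative to array noise its start was the weakest of the 8, with 0.34 beyond it and -0.19 before it, a step of 1.41 times that noise. Lymphoma mouse 7 was at 0.91 from 38.79 Mb, at 1.52 from 39.79 Mb and at 2.70 from 40.13 Mb.

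**Figure D2:**
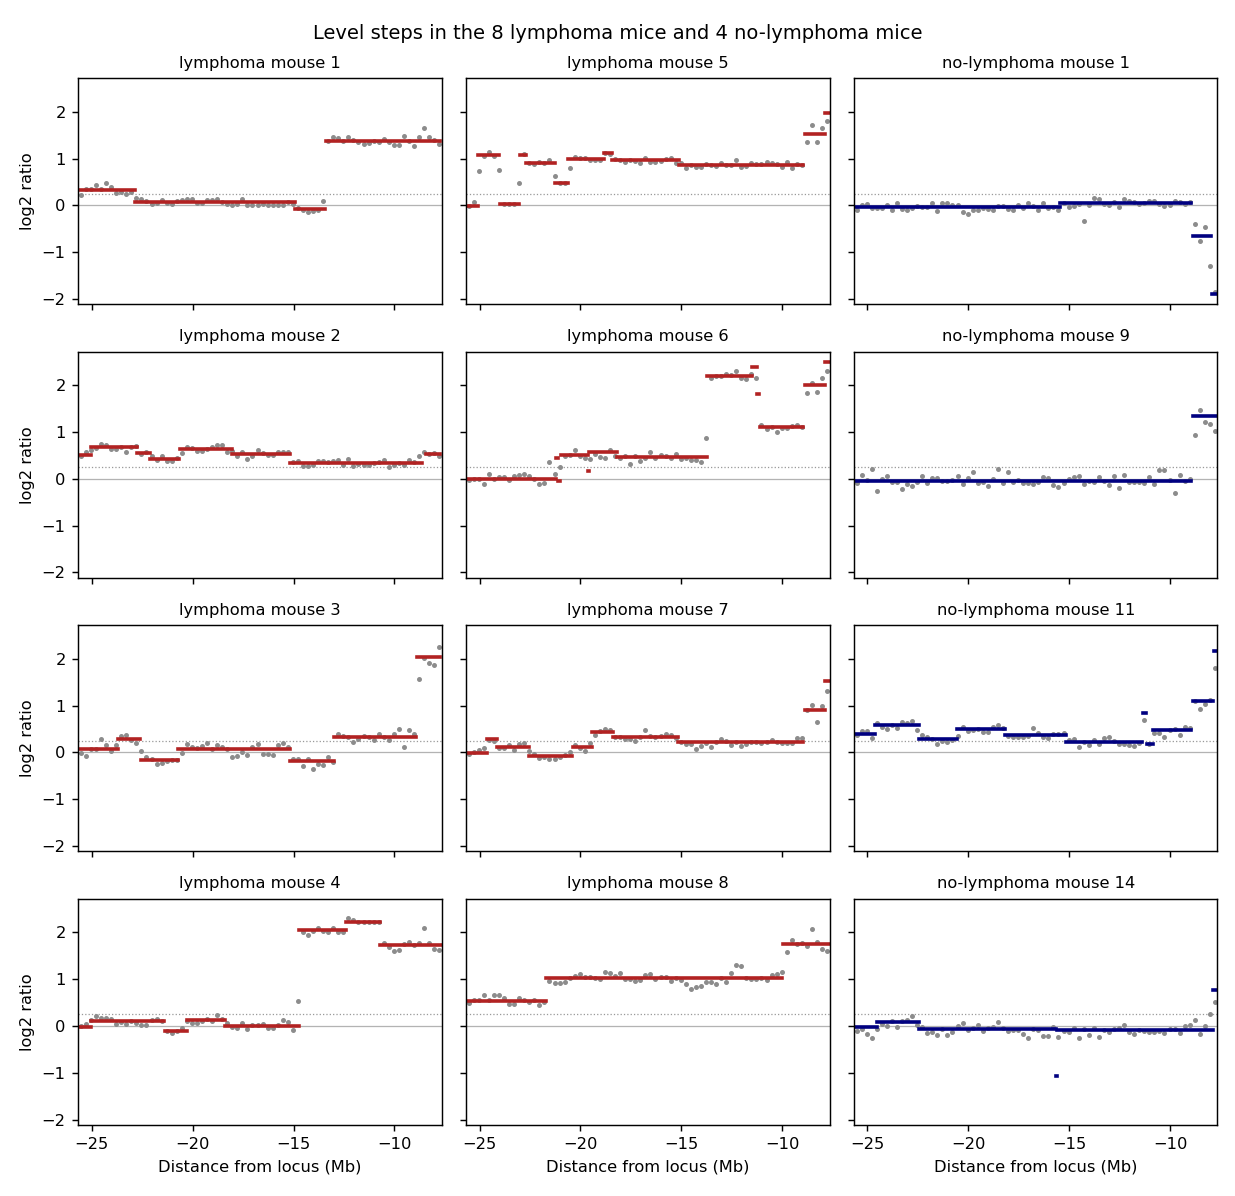
Segment means (bars) and means per 0.25 Mb (grey points) of the log2 ratio against distance from the receptor locus in Mb, for the 8 lymphoma arrays (red) and the 4 no-lymphoma arrays with a step of at least 0.5 (blue). The dotted line is the gain threshold of 0.25. Lymphoma mouse 4 changes to 2.04 in a single step, lymphoma mouse 6 climbs and falls in several, and no-lymphoma mouse 1 steps down to -0.65 and then -1.89.

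The mean level rose along the stretch in lymphoma mice and stayed near 0 in most no-lymphoma mice. At 22 to 28 Mb it was 0.31 ± 0.30 in lymphoma mice, against 0.02 ± 0.12 in no-lymphoma mice (SD, n = 8 against 14, here and below). At 28 to 34 Mb it was 0.45 ± 0.38 in lymphoma mice, against 0.01 ± 0.12 in no-lymphoma mice. At 34 to 40 Mb it was 1.03 ± 0.66 in lymphoma mice, against -0.003 ± 0.13 in no-lymphoma mice. Within scan batches 1, 3, 5 and 6 the difference at 22 to 28 Mb was 0.07, 0.62, 0.58 and 0.098, and at 28 to 34 Mb it was 0.087, 0.74, 0.95 and 0.38, so its size varied between batches and its direction did not. With normexp background correction the difference was 0.15 at 22 to 28 Mb and 0.21 at 28 to 34 Mb, in place of 0.29 and 0.44. The spread between lymphoma mice was close to the mean in the first 6 Mb and smaller than the mean at 34 to 40 Mb.

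Around Nrg3, at 34 to 37 Mb, the difference was 1.03 (1.01 ± 0.76 in lymphoma mice, -0.03 ± 0.11 in no-lymphoma mice). The lymphoma mice were at 1.32, 0.34, 0.20, 2.16, 0.88, 1.94, 0.21 and 1.01 for mice 1 to 8, from 1.15 to 4.48 times the wildtype amount of DNA. The no-lymphoma mice ran from -0.15 to 0.30 with a median of -0.05, and the highest was mouse 11. Lymphoma mice 3 and 7 lay below that mouse and the other 6 above it, so the groups overlapped.

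The difference around Nrg3 was 1.38, 0.63, 0.99 and 1.15 within scan batches 1, 3, 5 and 6, and 1.002 with scan batch as a block. Batches 2 and 4 held no-lymphoma mice only. It was 1.03 with those labelled no-lymphoma mouse 3, 4 and 9 turned in sign, 1.05 without those 3 and no-lymphoma mouse 1, and 1.06 without no-lymphoma mouse 11. In the 7 Mb beyond the stretch, at 40 to 47 Mb, the level was 1.79 ± 0.39 in lymphoma mice, against 0.18 ± 0.50 in no-lymphoma mice.

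At the bounds of the stretch, the first 10 probes after 22 Mb averaged 0.12 ± 0.21 in lymphoma mice, against 0.03 ± 0.13 in no-lymphoma mice. The last 10 before 22 Mb averaged 0.15 ± 0.23 in lymphoma mice, against 0.02 ± 0.11 in no-lymphoma mice. The last 10 probes before 40 Mb averaged 1.59 ± 0.59 in lymphoma mice, against 0.16 ± 0.80 in no-lymphoma mice. The first 10 after 40 Mb averaged 2.42 ± 0.53 in lymphoma mice, against 0.23 ± 0.95 in no-lymphoma mice.

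**Figure D3:**
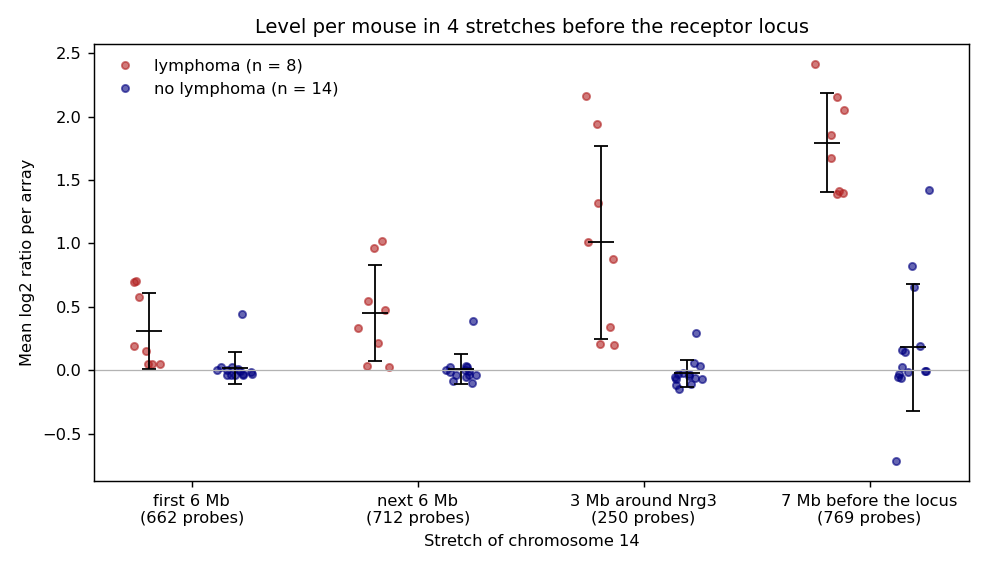
Mean log2 ratio of each array (points) in 4 stretches of chromosome 14, for lymphoma mice (red, left) and no-lymphoma mice (blue, right), with group mean and SD (black). Around Nrg3 the lymphoma mice run from 0.20 to 2.16 and the no-lymphoma mice from -0.15 to 0.30.

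Nrg3 was covered by 144 probes from 35794250 to 36888269, and its level was 1.01 ± 0.73 in lymphoma mice, against -0.03 ± 0.12 in no-lymphoma mice. The lymphoma mice were at 1.34, 0.32, 0.33, 2.21, 0.89, 1.79, 0.21 and 1.001 for mice 1 to 8. The no-lymphoma mice ran from -0.17 to 0.33. The gene midpoint was called gained in 7 lymphoma mice, against 1 no-lymphoma mouse, and the lymphoma mouse without the call was mouse 7. Lymphoma mice 4 and 6 had the most DNA of Nrg3, and mice 2, 3 and 7 differed little from no-lymphoma mouse 11.

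Along Nrg3 the level was flat in 7 of the 8 lymphoma mice and fell in lymphoma mouse 6. Over 4 successive blocks of 36 probes it was 2.23, 2.19, 2.24 and 2.20 in lymphoma mouse 4, and 1.33, 1.30, 1.38 and 1.32 in lymphoma mouse 1. In lymphoma mouse 6 it was 2.17, 2.32, 1.57 and 1.10, so the highest block lay 1.22 above the lowest, against 0.05 to 0.08 in the other lymphoma mice. No-lymphoma mouse 11 also changed level inside the gene, with 24 probes at 0.84 from 36.29 to 36.48 Mb between segments of 0.23 and 0.19. With the main settings no lymphoma mouse had a gain that began inside Nrg3, and no-lymphoma mouse 11 had its start there. With normexp background correction the gain of lymphoma mouse 5 began inside Nrg3, at 35.92 Mb, and that of no-lymphoma mouse 11 at 47.42 Mb. With a threshold of 0.15 the gain of no-lymphoma mouse 11 began at 17.28 Mb.

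The edge between 38702232 and 38791444 was shared by 7 arrays. No other step of at least 0.5 whose first probe after it lay in the stretch was found in more than 1 array. Across the end of the stretch, lymphoma mice 1, 2 and 3 shared a step between 39916021 and 40072611, of 1.17, 2.42 and 1.21. Of the 7 arrays that shared the edge, lymphoma mice contributed 4 (mice 3, 5, 6 and 7) and no-lymphoma mice 3 (mice 9, 11 and 1, the last of these downward). The level after the edge minus that before it was 1.71, 0.65, 0.90 and 0.69 in lymphoma mice 3, 5, 6 and 7. It was 1.39, 0.62 and -0.69 in no-lymphoma mice 9, 11 and 1. Directions are as labelled. An exchange of dyes was not tested for the arrays of no-lymphoma mice 1 and 9, and with one the fall in mouse 1 would be a rise and the rise in mouse 9 a fall.

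Probes were sparse there. The 25 probes at 38.79 to 39.92 Mb lie in, between or beyond AK007033, 4930503E14Rik and AK146842, transcripts with no described product in the tables used here, and the gap at the edge itself was 89.2 kb. Further gaps of 147, 191, 153 and 166 kb followed, the widest in the stretch. A step anywhere inside a gap is placed at the same pair of probes, so a shared edge here places the steps within the same 89.2 kb and no closer. Over the last 10 probes before the edge, the 25 sparse probes and the next 10 probes, lymphoma mouse 3 read 0.44, 2.05 and 3.32. No-lymphoma mouse 9 read -0.04, 1.12 and 1.17, and no-lymphoma mouse 1 read 0.06, -1.35 and -1.88. Lymphoma mouse 2 read 0.29, 0.52 and 2.77, so its main rise came after the sparse probes.

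**Figure D4:**
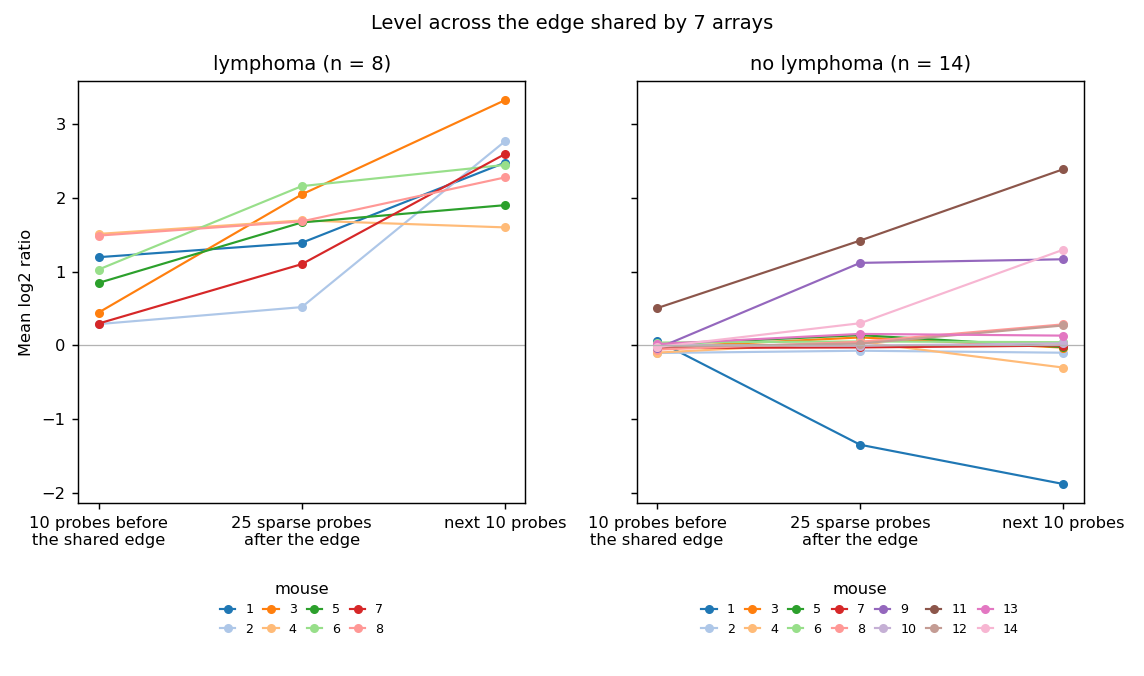
Mean log2 ratio over 3 successive sets of probes across the shared edge at 38.70 to 38.79 Mb, each line 1 array, with lymphoma mice on the left and no-lymphoma mice on the right. Every lymphoma mouse lies above 0 in all 3 sets, no-lymphoma mice 9, 11 and 14 lie above 1 in the last set, and no-lymphoma mouse 1 falls to -1.88.

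The stretch held 184 genes with a probe name, 102 of them with at least 3 probes. A gene was called gained in a mouse when the segment over its midpoint was at least 0.25. Gained in at least 4 lymphoma mice were 170 of the 184 genes, against 6.64% of all 24624 autosomal genes on the array, and 172 were gained in at least 1 no-lymphoma mouse, against 25.1% of all genes. All 172 were gained in no-lymphoma mouse 11. By number of lymphoma mice, 14 genes were gained in 3, 44 in 4, 98 in 5, 7 in 6, 18 in 7 and 3 in 8. No gene of the stretch was lost in a lymphoma mouse, while 3 were lost in no-lymphoma mouse 1 and 2 in no-lymphoma mouse 14. The share of all autosomal genes called lost is not given here, so these counts have no background to be read against. With normexp background correction, 32 genes in place of 170 were gained in at least 4 lymphoma mice.

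Just before Nrg3, between 34306101 and 35754245, lay the only genes on the array gained in at least 6 lymphoma mice and in no no-lymphoma mouse. They were 8 of all 24624 autosomal genes (0.0325%), and all 8 lay here: Ccser2, Rgr, Lrit1, Lrit2, Cdhr1, BC049685, Ghitm and AK133121. In no-lymphoma mouse 11 the segment over these genes was at 0.23, just under the threshold. No gene of the stretch was higher in each of the lymphoma mice than in each of the no-lymphoma mice, a pattern met by 0.0569% of all genes. The 3 genes gained in 8 of 8 were the transcripts of the sparse probes, AK007033, 4930503E14Rik and AK146842, gained in 2, 2 and 3 no-lymphoma mice.

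**Figure D5:**
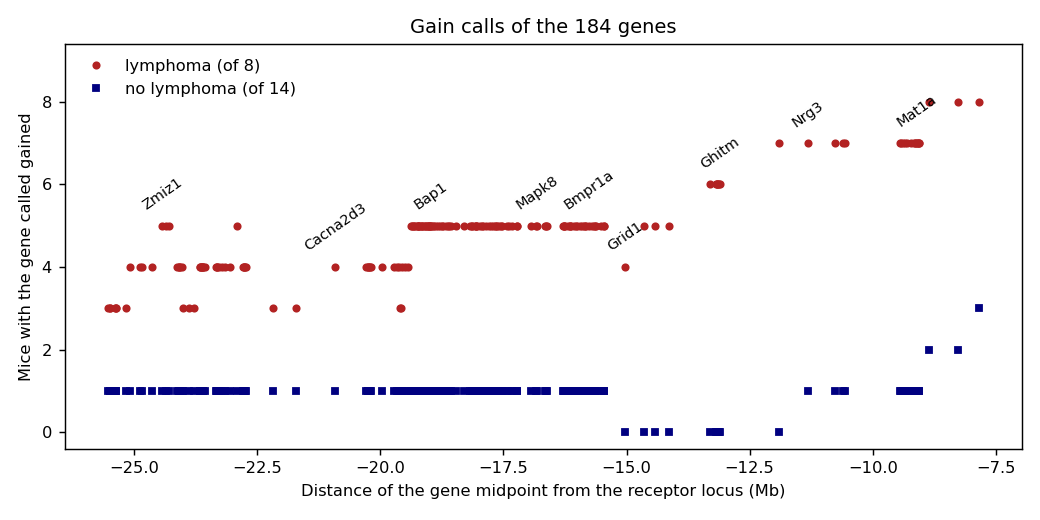
Number of mice in which each gene was called gained, for lymphoma mice (red circles, of 8) and no-lymphoma mice (blue squares, of 14), against distance of the gene midpoint from the receptor locus in Mb. Lymphoma counts run from 3 to 8 towards the locus, and 12 genes before Nrg3, Ghitm among them, were gained in 0 no-lymphoma mice.

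Genes of growth and signalling were gained along with their neighbours. Of 11 listed genes 10 lay in the stretch. Of these 10, 9 were gained in at least 4 lymphoma mice, beside 92.4% of all genes of the stretch. Their median difference was 0.42, against 0.44 over all 184 genes. Bmpr1a, a receptor for bone morphogenetic proteins, was at 0.45 ± 0.42 in lymphoma mice, against 0.00 ± 0.14 in no-lymphoma mice. Mapk8, which encodes the stress kinase JNK1, was at 0.51 ± 0.41 in lymphoma mice, against -0.001 ± 0.17 in no-lymphoma mice. Tspan14, a tetraspanin that guides the protease ADAM10, was at 1.02 ± 0.56 in lymphoma mice, against 0.00 ± 0.18 in no-lymphoma mice, and was gained in 7 lymphoma mice. Wnt5a was gained in 3 lymphoma mice only, at 0.15 ± 0.33 in lymphoma mice, against -0.004 ± 0.09 in no-lymphoma mice.

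The other growth genes had levels between these. Il17rd and Il17rb, receptors of the interleukin-17 family, were at 0.31 ± 0.24 and 0.46 ± 0.49 in lymphoma mice, against 0.06 ± 0.19 and 0.06 ± 0.20 in no-lymphoma mice. Prkcd, a protein kinase C, was at 0.38 ± 0.57 in lymphoma mice, against -0.09 ± 0.20 in no-lymphoma mice over 2 probes. The growth factors Gdf10 and Gdf2 were at 0.36 ± 0.42 and 0.42 ± 0.36 in lymphoma mice, against -0.04 ± 0.18 and 0.11 ± 0.44 in no-lymphoma mice. Gdf2 rests on a single probe, and its difference was -0.123 with normexp background correction.

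Genes of chromatin and DNA repair were all gained in at least 4 lymphoma mice, 7 of the 7 that lay in the stretch out of 9 listed, beside 170 of all 184 genes (92.4%). Their median difference was 0.43, against 0.44 over all 184. Bap1, a histone deubiquitinase and tumour suppressor, was at 0.43 ± 0.36 in lymphoma mice, against -0.04 ± 0.46 in no-lymphoma mice over 2 probes. Zmiz1, a coactivator of Notch1 in T-cell leukaemia, was at 0.46 ± 0.36 in lymphoma mice, against 0.05 ± 0.20 in no-lymphoma mice. Among lymphoma mice Zmiz1 was called gained in 5, mouse 7 among them through a 62-probe segment of 0.28 at 23.05 to 23.52 Mb. Parg, which removes poly(ADP-ribose) chains after DNA damage, was at 0.38 ± 0.48 in lymphoma mice, against 0.04 ± 0.18 in no-lymphoma mice. Wapl, which releases cohesin from DNA, was at 0.48 ± 0.38 in lymphoma mice, against 0.02 ± 0.15 in no-lymphoma mice. Actr8, Sfmbt1 and Phf7 were at 0.45 to 0.58 in lymphoma mice, against 0.06 to 0.13 in no-lymphoma mice.

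Genes of ion channels and synapses included large ones, such as Cacna2d3 and Erc2. Of 7 listed genes 5 lay in the stretch. Of these 5, 4 were gained in at least 4 lymphoma mice, beside 92.4% of all genes of the stretch. Their median difference was 0.39, against 0.44 over all 184 genes. Cacna2d3 (123 probes) was at 0.25 ± 0.39 in lymphoma mice, against -0.01 ± 0.09 in no-lymphoma mice. Erc2 (109 probes), a scaffold of the presynaptic active zone, was at 0.24 ± 0.36 in lymphoma mice, against -0.001 ± 0.11 in no-lymphoma mice. Cacna1d (58 probes), the pore subunit of a calcium channel, was at 0.43 ± 0.43 in lymphoma mice, against 0.02 ± 0.14 in no-lymphoma mice. Grid1 (106 probes) was at 0.40 ± 0.37 in lymphoma mice, against 0.01 ± 0.10 in no-lymphoma mice, and the start of the gain in lymphoma mouse 4 cut it. Chat, which makes acetylcholine, was at 0.37 ± 0.45 in lymphoma mice, against -0.03 ± 0.13 in no-lymphoma mice.

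Genes of metabolism spanned low and high levels. Of 10 listed genes 8 lay in the stretch, and all 8 were gained in at least 4 lymphoma mice, beside 92.4% of all genes of the stretch. Their median difference was 0.52, against 0.44 over all 184. Mat1a, the liver enzyme that makes S-adenosylmethionine, was at 1.09 ± 0.64 in lymphoma mice, against 0.07 ± 0.25 in no-lymphoma mice. Ghitm was at 0.98 ± 0.88 in lymphoma mice, against -0.02 ± 0.16 in no-lymphoma mice. Glud1, glutamate dehydrogenase, was at 0.47 ± 0.37 in lymphoma mice, against -0.01 ± 0.18 in no-lymphoma mice. Tkt, the transketolase of the pentose phosphate pathway, was at 0.43 ± 0.40 in lymphoma mice, against 0.02 ± 0.16 in no-lymphoma mice. Ppif, Chdh, Hacl1 and Btd were at 0.46 to 0.61 in lymphoma mice, against -0.06 to 0.13 in no-lymphoma mice. The difference for Ppif, which rests on 1 probe, was 0.59, but 0.13 with normexp background correction and 0.21 with no-lymphoma mouse 3, 4 and 9 turned in sign. That for Chdh was 0.51, but 0.12 with normexp.

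The 6 listed genes of photoreceptors and retina all lay in the stretch. All 6 were gained in at least 4 lymphoma mice, beside 92.4% of all genes of the stretch. Their median difference was 1.02, against 0.44 over all 184 genes. Rgr, Lrit1, Lrit2 and Cdhr1 lie side by side at 34465257 to 34521912, next to Ghitm, and were gained together in 6 lymphoma mice. Of all 184 genes, 7 were gained in 6 lymphoma mice, 18 in 7 and 3 in 8. Rgr, a retinal opsin, was at 1.03 ± 0.91 in lymphoma mice, against 0.05 ± 0.16 in no-lymphoma mice. Cdhr1, a photoreceptor cadherin, was at 1.05 ± 0.90 in lymphoma mice, against -0.03 ± 0.14 in no-lymphoma mice, with lymphoma mice 4 and 6 at 2.15 and 2.29 and lymphoma mouse 3 at -0.23. Opn4 and Rbp3, which lie further from the locus, were at 0.33 ± 0.39 and 0.34 ± 0.42 in lymphoma mice, against -0.07 ± 0.43 and -0.06 ± 0.27 in no-lymphoma mice. Genes side by side share segments, so the members of a list are not independent.

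By level, the 10 highest genes with at least 3 probes lay in 2 places, 6 of them between 38246233 and 39743379 and 4 before Nrg3, between 34465257 and 34541821. 4930503E14Rik was at 1.50 ± 0.51 in lymphoma mice, against 0.14 ± 0.52 in no-lymphoma mice, with no-lymphoma mouse 9 at 1.25 and no-lymphoma mouse 1 at -0.97. BC049685, Mat1a, Lrit1, Sftpd, Cdhr1, Rgr, AK006511, Sh2d4b and Tspan14 followed, at 1.02 to 1.16 in lymphoma mice, against -0.03 to 0.17 in no-lymphoma mice. Sftpd encodes a surfactant protein of the lung. The 5 lowest were AK143315, AK005833, Wnt5a, A630054L15Rik and Appl1, at 0.12 to 0.17 in lymphoma mice, against -0.11 to 0.06 in no-lymphoma mice, all before 26 Mb. The difference for AK005833 was -0.0162 with normexp background correction.

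Some gained segments did not join the main gain. Lymphoma mice had 8 such segments, in 5 mice and all before 32.50 Mb, and no-lymphoma mice had 7, in 2 mice. In lymphoma mouse 1 the segment from 21996883 to 24802346 had a mean of 0.33, and in lymphoma mouse 3 the one at 23.98 to 25.07 Mb had 0.29. No-lymphoma mouse 11 had 6 of the 7, which covered 12.8 Mb, in part before 22 Mb. Its segment at 23.05 to 25.23 Mb, with a mean of 0.58, overlapped both of these segments of lymphoma mice 1 and 3. That at 27.08 to 29.49 Mb, with 0.49, overlapped neither. It did overlap such segments in lymphoma mouse 6 (0.52) and lymphoma mouse 7 (0.44 at 28.24 to 29.26 Mb). The remaining segment was in no-lymphoma mouse 14, with 0.77 at 39.80 to 40.07 Mb.

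Low waves ran along the chromosome in many arrays, also in those without a gain. The level per 1 Mb correlated with the GC content of the probes at -0.66 to 0.44 over the 18 bins of an array, as a description, since neighbouring bins share segments. No-lymphoma mouse 2, called not gained anywhere here, ran from 0.13 at 23 to 24 Mb down to -0.16 at 36 to 37 Mb. A correction for GC content, chosen after the data were seen, moved the start of the gain in 1 lymphoma mouse, mouse 7, to 38.26 Mb.

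Relations that the choice of the stretch did not use were tested across the 8 lymphoma mice, 4 in all. The level around Nrg3 did not relate detectably to the chromosome 15 median (Pearson r = 0.17, exact two-sided permutation p = 0.725, Spearman rho = 0.29, exact p = 0.501). Nor did it relate to the level at 40 to 47 Mb (r = -0.08, exact permutation p = 0.838, rho = -0.02, exact p = 0.977) or to array noise (r = -0.23, exact permutation p = 0.633, rho = 0.07, exact p = 0.882). The start of the gain did not relate detectably to the level at 40 to 47 Mb (r = -0.12, exact permutation p = 0.767, rho = 0.10, exact p = 0.840). Adjusted over the 4 relations by Benjamini-Hochberg, each exact permutation p was 0.838 for r and 0.977 for rho. Without the 2 mice farthest from the median of the first measure, r was -0.16, -0.57, -0.24 and 0.06. With normexp background correction the start related to the level at 40 to 47 Mb at r = -0.93 (exact permutation, adjusted p = 0.00268), after the starts of lymphoma mice 7 and 8 had moved beyond 46 Mb. A scan batch held at most 3 lymphoma mice, too few for a value within batches.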

How the data were processed

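DNA of 22 mice was measured on 1 Agilent 244A array each. The deposited scanner files give each spot's intensity in both channels. Their processed signals had the background subtracted and the dyes normalised, with protocol CGH-v4_91 of Feature Extraction 9.1.3.1, per the file headers. The submitters' processing notes name Feature Extraction 9.1. Per the file headers, the deposited log10 ratio sets red processed signal over green. The deposited value table equalled it in every array (largest difference 0), with column medians of -0.0199 to 0.0164, so scale, centring and direction are known.

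Log2 ratios were taken from the processed signals. Control spots and 3 to 111 spots per array with an outlier flag were left out. Repeat spots were averaged per probe. The autosomal median of an array was set to 0, and neither loess nor quantile normalisation was applied. The share of spots that a channel did not measure well above background was 0.089% to 1.54% of an array. The number of arrays limits the precision. Positions, gene names and sequences came from the 4 files that carry them and were joined by spot number. Of the 184 gene names in the stretch, 78 matched a RefSeq symbol of assembly GRCm38.p6 and 23 a synonym, and 83 stayed as in the files. That assembly served for names only.

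Each array was segmented on its own by optimal partitioning (at least 5 probes, penalty factor 3 on the noise variance and the log of the number of probes), after probes over 4 noise SD from a 7-probe running median were set to that limit. Noise was estimated from differences of adjoining probes. A mean of 0.25 or more is a gain. The script was tested on simulated data. Python 3.11.15, numpy 2.4.6, scipy 1.17.1, pandas 2.3.3 and numba 0.67.0 were used. Scan dates in the headers gave 6 scan batches. Those with both groups were batch 1 (lymphoma mice 1, 3, 4; no-lymphoma mouse 2), batch 3 (lymphoma mice 2, 5; no-lymphoma mice 5, 6), batch 5 (lymphoma mouse 8; no-lymphoma mice 7, 11, 14) and batch 6 (lymphoma mice 6, 7; no-lymphoma mouse 13).

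The stretch, the gene lists and the alternatives were chosen with earlier results of these data known. Named are the genes of 5 lists, those that hold or flank a start or step in a lymphoma array, and, of genes with at least 3 probes, the 10 highest and 5 lowest by mean over lymphoma mice. Other genes named were chosen after their values were seen. The place of the start in lymphoma mouse 6 is not reported here. Groups were described without a test, and 4 relations were tested by exact two-sided permutation with Benjamini-Hochberg adjustment. The alternative with normexp background correction (offset 50) used median signals, because 18 files lack mean signals. These signals lack the dye normalisation of the processed ones. The offset was added to both channels, which reduces the size of log ratios, and the gain threshold stayed at 0.25. Which of these changes moved the results was not tested. Normexp, the deposited ratio, centring, flags, dim spots, segmentation settings, thresholds, array signs and left-out arrays were the alternatives.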

Additional observations from a re-analysis of the deposited data

Results flagged for a closer look

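The chromosome 15 median of lymphoma mouse 8 was 0.154, apart from the other 7 lymphoma mice, which lay between 0.42 and 0.57. Its gap to the nearest of them was 0.641 of the range of the 8, above Dixon's 95% critical value. It was the single value set apart in this way among 109 measures looked at in lymphoma mice, and chance alone gives about 1 in 20 groups. The same mouse had the earliest start of the chromosome 14 gain, at 17.27 Mb, and a level of 1.01 around Nrg3.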

How the results depend on the processing

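The differences between the groups at 22 to 28, 28 to 34, 34 to 37 and 34 to 40 Mb kept their direction under all 48 alternative values. Each value also stayed within 1 SD between lymphoma mice of the main one. That limit is wide, since at 22 to 28 Mb this SD was 0.30 and the difference itself 0.29. The differences ranged over 0.15 to 0.37, 0.21 to 0.56, 0.92 to 1.07 and 0.91 to 1.07. The median start ranged from 27456664 to 34500277. Lymphoma mice 1 and 4 kept their start under 18 of 18 alternatives, and mouse 6 under 12 of 18. Normexp background correction changed most. Under it 6 lymphoma mice had a gain beginning before 40 Mb, because the starts of mice 7 and 8 moved to 47.65 and 46.93 Mb. No-lymphoma mice with such a gain were then 0, and genes gained in at least 4 lymphoma mice 32. The no-lymphoma count was 4 with a threshold of 0.15, and 1 with the sign turned for no-lymphoma mouse 3, 4 and 9, without no-lymphoma mouse 1, 3, 4 and 9, or without no-lymphoma mouse 11. Under normexp the level around Nrg3 related to that at 40 to 47 Mb at r = 0.59 (exact permutation, adjusted p = 0.124) and to noise at r = 0.66 (adjusted exact p = 0.112). The start then related to the level at 40 to 47 Mb at r = -0.93 (adjusted exact permutation p = 0.00268), and at r = 0.69 with no clipping (adjusted exact p = 0.230) and r = 0.43 with a threshold of 0.40 (adjusted exact p = 0.838). The cause was not tested. The adjusted p stayed above 0.05 in the other alternatives. Over all settings, r between the level around Nrg3 and the chromosome 15 median ran from 0.03 to 0.70. Gene differences turned sign under normexp for AK005833 (-0.0162), AK034319 (-0.0317), Tmem254a (-0.0566), AK052884 (-0.0876), AK028620 (-0.138), Mustn1 (-0.0878), Itih1 (-0.0102), AK078809 (-0.112), Gdf2 (-0.123) and AK044736 (-0.0283). They turned with the sign changed for no-lymphoma mouse 3, 4 and 9 for AK052884 (-0.112), Asb14 (-0.108) and AK028620 (-0.149), and with scan batch 2 turned for AK052884 (-0.00313). Turning scan batch 2, leaving out mice 1, 3, 4 and 9 or mouse 11, and the GC correction were chosen after seeing the data. No paired analysis was possible because the mice carry no shared replicate numbers, and the numbers used here follow accession order. Starts are placed no closer than the probe spacing.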
